A study of Caenorhabditis elegans with 2 samples.

Results

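The translation factor genes described here are the 39 protein-coding genes of Caenorhabditis elegans whose symbols begin with eif-, iff-, ife-, ifg- or eef-, out of 19985 protein-coding genes in Ensembl's WBcel235 annotation. They were chosen by symbol alone, so a factor gene under another name, such as egl-45 for the largest eIF3 subunit, is not counted. The readout was chromatin immunoprecipitation with sequencing (ChIP-seq) of the homeobox protein CEH-82, product of F45C12.2, carrying GFP and FLAG at its C-terminal end. Whole L4 larvae of both sexes came from strain OP212, whose genotype is unc-119(ed3) III with the transgene ddEx58, and they made up 1 group of 2 biological replicates. The name ddEx58 is that of an extrachromosomal array although an insertion is mentioned too, so its form is unsettled, and its promoter and copy number are not stated. An untagged strain was not analysed here, and in whole animals the signal cannot be assigned to a tissue. There was therefore no contrast between conditions, and a peak near a gene is reported as a position and a signal value, not as binding by the protein.

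Translation begins when initiation factors bring the small ribosomal subunit, the initiator tRNA and the capped mRNA together. The eIF2 complex carries the initiator tRNA and is recharged by the exchange factor eIF2B, eIF3 is the many-subunit scaffold on the small subunit, and the eIF4 factors bind the mRNA cap. During elongation eEF1A delivers charged tRNAs, eEF1B recharges eEF1A, eEF2 moves the ribosome along the mRNA and eIF5A helps peptide bonds to form. These factors are made in nearly all growing cells, and a worm at the fourth larval stage is growing and building its germline.

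A gene was counted when a peak summit lay from 1000 bp upstream of its annotated start to its end, which is called its window below. The lists of the replicates and of the pooled reads were made for the irreproducible discovery rate (IDR) step and, by their labels, hold background as well as peaks. Replicate 1 had 4561 entries, replicate 2 had 8651 and the pooled list 15658, with median signal values of 2.66, 2.84 and 2.95. The signal value is the authors' own score for a peak, its scale is not stated, and it is used only within a list. The authors' thresholded list of 57 peaks, selected by IDR, had a lowest signal value of 16.4. The 1000 strongest pooled peaks reached down to 6.10, and the 1000 strongest of replicates 1 and 2 to 3.41 and 4.75. Read depth is unknown from these lists.

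Translation factor genes held pooled summits more often than protein-coding genes at large, and their share relative to the background was higher among strong peaks. Of the 39 genes, 25 (64.1%) held a pooled summit, against 42.2% of all protein-coding genes. Among the 1000 strongest pooled peaks 8 genes (20.5%) held a summit, against a background of 4.33%. These were eif-3.C, iff-2, eef-1A.2, eef-2, eif-3.B, eef-1A.1, eif-2Bgamma and eif-2Bdelta, in order of signal value. In the thresholded list 2 genes (5.13%) held a summit, eif-3.C and iff-2, against 0.285%. No test stands behind these shares, since the list of genes was proposed with results of these data known.

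Gene length was close to that of other genes. The median gene length was 2152 bp for the factors and 2026 bp for all protein-coding genes. Per 10 kb of window the factors held 4.05 pooled summits and all protein-coding genes 1.71. In a window of the same size for every gene, from 1000 bp before its start to 500 bp after it, 20 factor genes held a pooled summit, against 25.0% of all genes, and 7 held one of the 1000 strongest, against 2.81%. Among genes of at least 1457 bp and under 2916 bp, 12 of 21 factor genes and 37.3% of all genes held a pooled summit, and 5 of the 21 held one of the 1000 strongest against 3.36%. Among longer genes 7 of 8 factor genes held a pooled summit, against 62.0%, and 3 of 8 one of the 1000 strongest, against 6.03%. Among shorter genes 6 of 10 factor genes and 27.4% of all genes held a pooled summit, while 0 of the 10 held one of the 1000 strongest, against 3.60%.

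**Figure D1:**
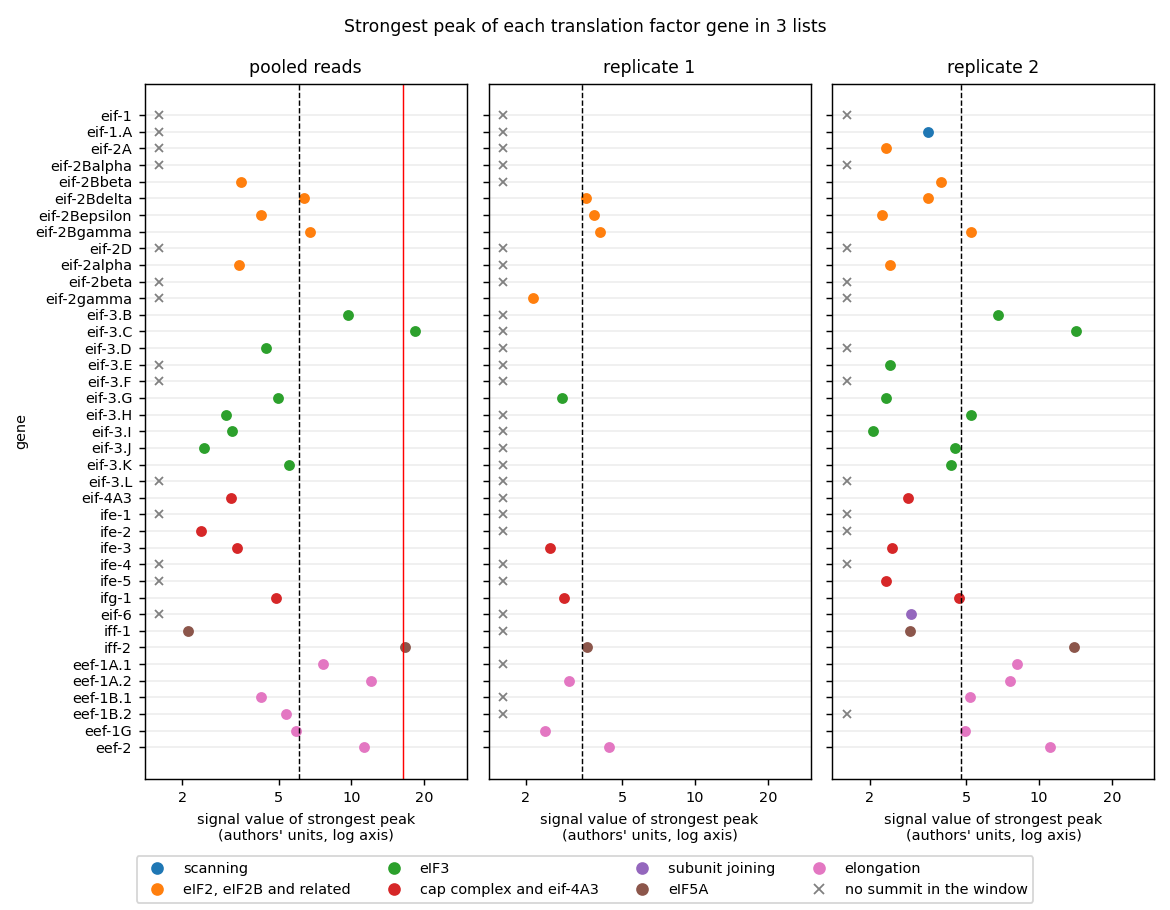
Signal value of the strongest peak with its summit in the window of each of the 39 genes (log x axis, authors' units), in the pooled list and in each replicate's list. Grey crosses mark genes without a summit, dashed lines the signal value at rank 1000 of that list and the red line the lowest thresholded peak, 16.4. Only eif-3.C and iff-2 lie beyond the red line, and no gene exceeds 4.42 in replicate 1.

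The sequence under the strongest peak is shown for 4 of the 8 genes with one of the 1000 strongest pooled summits. These are iff-2 and eif-3.B of initiation and eIF5A and the pair eef-1A.1 and eef-1A.2 of elongation. The 4 are not the highest in rank: eif-3.C (rank 41) and eef-2 (rank 163) are not shown, while eef-1A.1 is at rank 537. Each line reads 5' to 3' on the strand of the gene and covers up to 100 bp to either side of the strongest pooled summit, without annotated UTR sequence. Capitals mark 6 words on either strand, with overlapping matches merged: TAATTA (a homeodomain core), CCGCCC (as bound by SP1 in mammals), the repeat GAGAGA, the TATA-like word TATAAA, the E-box CACGTG and the splice acceptor TTTCAG. Coordinates are on WBcel235 (ce11), from the RefSeq assembly: iff-2 at chrII:8561368-8561547 (minus strand), eif-3.B at chrII:14795076-14795276 (plus), eef-1A.2 at chrX:7823204-7823404 (plus) and eef-1A.1 at chrIII:6971187-6971387 (minus).
iff-2: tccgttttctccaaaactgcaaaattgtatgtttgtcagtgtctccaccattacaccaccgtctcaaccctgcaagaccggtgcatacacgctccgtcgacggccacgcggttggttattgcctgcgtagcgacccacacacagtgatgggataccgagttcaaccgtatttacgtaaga
eif-3.B: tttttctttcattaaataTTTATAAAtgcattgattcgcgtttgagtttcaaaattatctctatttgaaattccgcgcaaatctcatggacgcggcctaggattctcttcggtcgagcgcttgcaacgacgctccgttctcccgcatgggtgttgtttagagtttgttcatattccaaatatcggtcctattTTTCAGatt
eef-1A.2: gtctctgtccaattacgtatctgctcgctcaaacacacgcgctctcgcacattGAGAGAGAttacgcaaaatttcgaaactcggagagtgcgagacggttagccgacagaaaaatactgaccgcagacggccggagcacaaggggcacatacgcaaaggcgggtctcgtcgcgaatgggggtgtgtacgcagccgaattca
eef-1A.1: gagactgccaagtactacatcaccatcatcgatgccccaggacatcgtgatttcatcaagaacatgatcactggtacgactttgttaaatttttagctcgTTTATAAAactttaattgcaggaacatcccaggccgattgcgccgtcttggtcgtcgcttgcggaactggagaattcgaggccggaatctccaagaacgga

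The iff-2, eif-3.B and eef-1A.2 stretches lie upstream of the genes, and the eef-1A.1 stretch lies inside the gene, on an intron and the coding exons beside it. The iff-2 stretch held none of the 6 words. The eif-3.B stretch held TATAAA and TTTCAG, the eef-1A.2 stretch GAGAGA in a run of 8 alternating bases, and the eef-1A.1 stretch TATAAA in its intron. Within 50 bp of the summit the G+C content was 60.4% at iff-2, 51.5% at both eif-3.B and eif-3.C, 50.5% at eef-1A.2, 44.6% at eef-2, 39.6% at eef-1A.1, 37.6% at eif-2Bgamma and 24.8% at eif-2Bdelta. It averaged 38.0% around all pooled summits and 43.8% around the 1000 strongest.

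Subunits of eIF3 held the strongest peak of the family. At eif-3.C (chrI:9976426-9979662, minus strand), which encodes a core subunit, the pooled list gave a signal value of 18.3 at rank 41, 251 bp upstream of the start in intergenic sequence. Replicate 2 gave 14.2 at rank 36 with the same summit, and replicate 1 gave no peak there, its nearest summit lying 6760 bp away. The eif-3.C peak therefore stood among the strongest of replicate 2 and was not in the list of replicate 1. A weaker pooled summit of 4.33 lay in its coding sequence, 2655 bp downstream of the start.

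At eif-3.B (chrII:14795404-14798235, plus strand), for another core subunit, the pooled signal value was 9.70 at rank 254, 228 bp upstream of the start. Replicate 2 gave 6.79 at the same base, and the nearest replicate 1 summit was 127557 bp away. The 2 genes resembled each other in that the strong summit was upstream, intergenic and in replicate 2 alone. The nearest protein-coding gene body upstream of eif-3.B lay 2748 bp away and that upstream of eif-3.C, sys-1 on the same strand, 400 bp away.

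The other eIF3 genes had weaker peaks. Pooled summits were found at eif-3.K (5.53), eif-3.G (4.99), eif-3.D (4.44), eif-3.I (3.22), eif-3.H (3.03) and eif-3.J (2.47), so 8 of the 11 eIF3 genes held one, against 42.2% of all genes, and eif-3.E, eif-3.F and eif-3.L held none. Replicate 1 had a summit in the window of 1 eIF3 gene, eif-3.G, with a signal value of 2.82 (9.09% of the group, against 16.6% of all genes). Replicate 2 had one in the windows of 8, among them eif-3.H with 5.21, against 27.3%. The eif-3.D summit lay closer to the start of its neighbour R08D7.4, 114 bp upstream of it, than to its own.

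The eIF5A genes differed in these lists. IFF-2 serves the body and IFF-1 the germline in this worm. At iff-2 (chrII:8559375-8561367, minus strand) the thresholded summit lay 80 bp upstream of the start, with a pooled signal value of 16.6 at rank 52. Replicate 2 gave 13.9 at rank 39, 81 bp upstream of the start, and replicate 1 had no peak overlapping it, with its nearest summit 1662 bp away. Further pooled summits of 4.48, 4.05 and 4.09 followed 1294, 1581 and 1797 bp downstream of the start, and replicate 1's only summit in the window, 3.58, coincided with the middle of these to within 1 bp. Replicate 2 had a second summit of 2.59 at 1294 bp. Its strong signal was thus at the start of iff-2, where replicate 1 had none.

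At iff-1 (chrIII:9745862-9747193, minus strand) the only pooled summit had a signal value of 2.12 at rank 14495 and lay 13 bp inside the neighbouring gene cdk-1, 292 bp upstream of iff-1. Replicate 2 gave 2.92 at 241 bp upstream and replicate 1 gave none. The coding sequences of iff-1 and iff-2 were 78.7% identical over 483 aligned bases and shared 0 words of 36 bases. The thresholded summit of iff-2 lay outside the sequences compared. In the pooled peaks of both genes, 0 of the 36-base words occurred elsewhere in the genome.

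**Figure D2:**
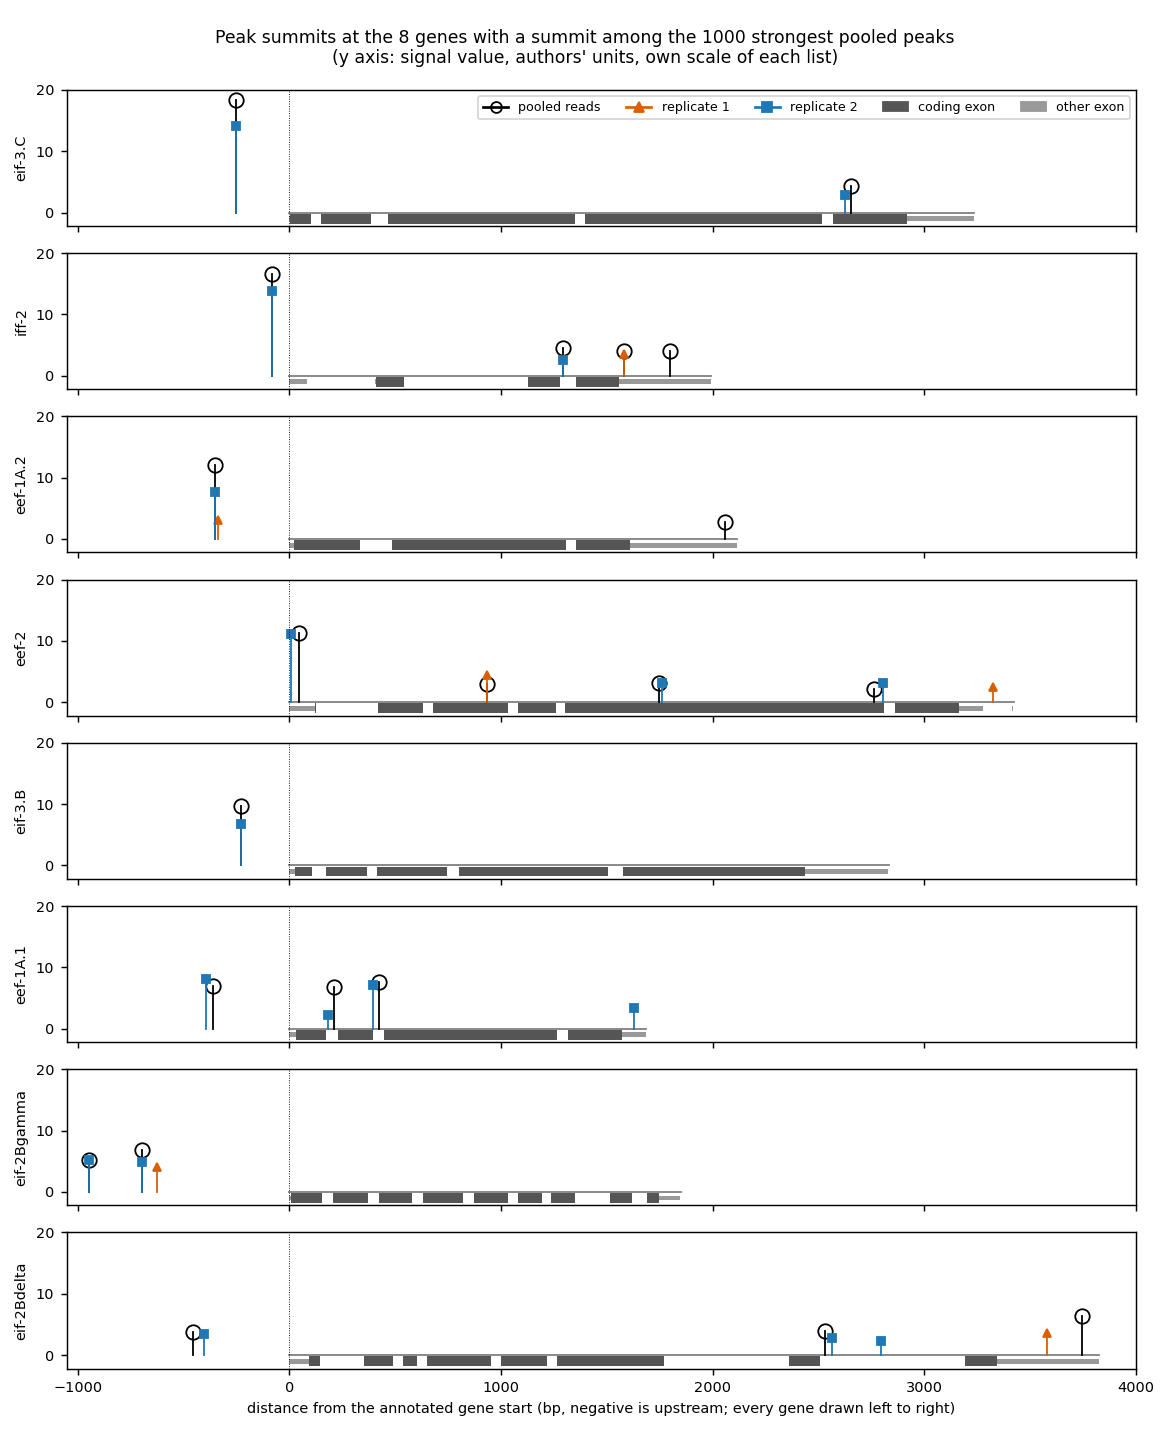
Summits at the 8 genes with a summit among the 1000 strongest pooled peaks, against distance from the annotated start (bp, negative is upstream), with signal value on the y axis in the units of each list. Open circles are pooled, triangles replicate 1, squares replicate 2 and the boxes under each map are exons. At eif-3.C, iff-2, eef-2 and eif-3.B the tallest summit has no triangle beside it, while at eef-1A.2 both replicates meet 337 to 352 bp upstream.

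The elongation genes held pooled summits in 6 of 6 cases, against 42.2% of all genes, and one of the 1000 strongest in 3 of 6, against 4.33%. The other 33 genes held them in 19 and 5 cases. Per 10 kb of window the elongation genes held 8.58 pooled summits and the other factor genes 3.32. In replicate 2 alone 5 of the 6 held one of its 1000 strongest summits, against 4.34% of all genes, and in replicate 1 alone 1 of 6 did, against 4.23%. The elongation genes here are those with eef- symbols, so the eIF5A genes iff-1 and iff-2 and also eif-6 are among the other 33. Of the eIF5A genes 2 of 2 held a pooled summit and iff-2 one of the 1000 strongest. Whether the eef- genes and the other factor genes differ was not tested.

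The gene eef-1A.2 (chrX:7823654-7825769, plus strand) had the third strongest peak of the family. Its pooled signal value was 12.1 at rank 135, 350 bp upstream of the start. Replicate 1 gave 3.02 at 337 bp and replicate 2 gave 7.59 at 352 bp upstream, so both replicates placed a summit within 15 bp of the same position. The summit lay 81 bp from the noncoding RNA gene R03G5.8, and the next protein-coding gene body upstream, sek-1, was 2617 bp away. Apart from this peak the window held a pooled summit of 2.72 in the 3' UTR.

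Its near-copy eef-1A.1 (chrIII:6970026-6971712, minus strand) had 3 pooled summits among the 1000 strongest, 2 of them inside the gene. These were 7.61 at 425 bp and 6.86 at 212 bp downstream of the start, both in introns, and 7.01 at 358 bp upstream. The upstream summit fell inside the microRNA gene cel-mir-5549 and was closer to the start of rfc-4, a replication factor C gene, at 183 bp. Replicate 2 gave 8.14 upstream and 7.13 at 394 bp downstream, and replicate 1 gave no summit in the window. The coding sequences of eef-1A.1 and eef-1A.2 were 94.0% identical over 1389 bases and shared 94 of 1354 words of 36 bases (6.94%). At each of the peaks inside eef-1A.1, 5.37% of such words occurred elsewhere in the genome, while the coding exons of eef-1A.2 held no pooled summit.

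At eef-2 (chrI:9163531-9166952, plus strand), which encodes the translocation factor, the strongest pooled summit lay 46 bp downstream of the annotated start, in the 5' UTR and at the start of another annotated transcript of the gene, with a signal value of 11.3 at rank 163. Replicate 2 gave 11.1 at rank 73, 7 bp downstream of the start. Replicate 1 had no peak overlapping it and its nearest summit, 4.42 at 933 bp in a coding exon, was 887 bp away. The gene held 4 pooled summits in all, 3 of them in coding exons with signal values of 2.23 to 3.13.

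The eEF1B genes had pooled summits of moderate signal. At eef-1G, the gamma subunit gene, the strongest was 5.91 in a coding exon 1654 bp downstream of the start and 117 bp from the snoRNA gene F17C11.14, and a further one of 5.15 lay 78 bp upstream of the start. Replicate 2 shared the first with 4.96 and replicate 1 the second with 2.39. At eef-1B.1 the summit of 4.25 lay 103 bp upstream, with 5.20 in replicate 2 and none in replicate 1. At eef-1B.2 the summit of 5.35 lay in a coding exon 542 bp downstream, and neither replicate's list held a summit in the window.

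**Figure D3:**
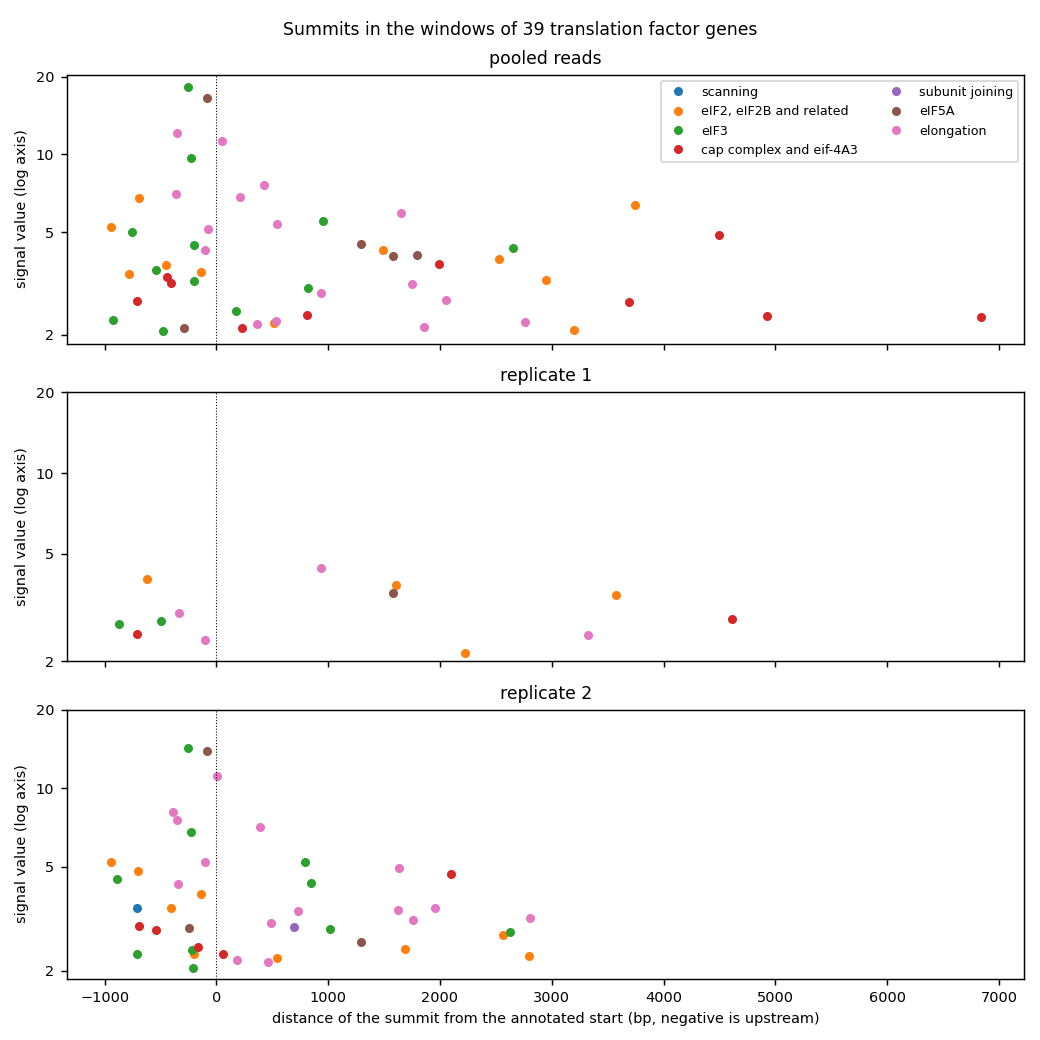
Distance of every summit from the annotated start (x axis, bp, negative is upstream) against its signal value (log y axis, authors' units) for the 39 genes in the pooled list and in each replicate, coloured by factor group. The 54 pooled summits include 5 above 9, all between 350 bp upstream and 46 bp downstream of a start, and the 13 summits of replicate 1 include 0 within 100 bp of a start.

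Of the 10 genes of eIF2, eIF2B and related factors, 5 held a pooled summit, a share near the 42.2% of all protein-coding genes, and 2 held one of the 1000 strongest, against 4.33%. The pooled list held summits at eif-2Bgamma (6.76), eif-2Bdelta (6.37), eif-2Bepsilon (4.24) and eif-2Bbeta (3.50) but not at eif-2Balpha. Of the eIF2 subunits, eif-2alpha had a strongest summit of 3.44, which lay in the coding sequence of the neighbour phb-1, and eif-2beta and eif-2gamma had none. The genes eif-2A and eif-2D, for alternative carriers of initiator tRNA known from mammals, had none either. Whether these subgroups differ was not tested.

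The strong peaks of this group lay away from the starts they were counted for. At eif-2Bgamma (chrII:6965800-6967648, minus strand) the summit was 696 bp upstream, in a coding exon of C15F1.5 and 50 bp from sup-39, annotated as a small nuclear RNA gene. Of the 36-base words in that peak 27.8% occurred elsewhere in the genome. Both replicates had a peak there, with signal values of 4.03 in replicate 1, 624 bp upstream, and 4.84 in replicate 2, 697 bp upstream. At eif-2Bdelta (chrV:9513824-9517649, plus strand) the summit was 3747 bp downstream of the start. It lay inside the gene close to its end, and also in the 3' UTR of the neighbour C50F4.8. Replicate 1 had an overlapping peak of 3.53, with its summit in the 3' UTR of eif-2Bdelta, and replicate 2 had none. At eif-2Bepsilon the strongest summit was in an intron, 1491 bp downstream, overlapped by a replicate 1 peak of 3.82 alone.

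Of the 7 genes of the cap complex and eif-4A3, 4 held a pooled summit, against 42.2% of all genes. One of the 1000 strongest was held by 0 of the 7 in any list, against 4.33% of all genes in the pooled list. In replicates 1 and 2 the shares of all genes were 4.23% and 4.34%, so 0 of 7 is near the background. The eIF4G gene ifg-1, the scaffold of the cap complex, held 4 pooled summits across its 5175 bp, the strongest of 4.86 at rank 2030 in its 3' UTR at 4493 bp, which equals the median of the 25 factor genes with a summit. Replicate 1 had 2.87 near that end and replicate 2 had 4.68 in a coding exon at 2096 bp, so the strongest summits of the replicates lay in different parts of the gene. Of the 5 genes for the cap-binding protein eIF4E, ife-3 had a pooled summit of 3.36 and ife-2 one of 2.38, while ife-1, ife-4 and ife-5 had none. In replicate 2 ife-5 had a summit of 2.33, 58 bp downstream of its start, and ife-3 one of 2.46, 168 bp upstream. Replicate 1 gave ife-3 a summit of 2.52, 708 bp upstream, nearer to the start of B0348.10 and within 1 bp of a second pooled summit of 2.71. The strongest pooled summit of ife-3, 440 bp upstream, lay 268 and 272 bp from the nearest summits of replicates 1 and 2. The ife genes were 51.2 to 86.0% identical in coding sequence, the closest pair being ife-1 and ife-5 with 10 shared words of 36 bases. At eif-4A3, the helicase of the exon junction complex, the strongest summit of 3.17 lay 57 bp upstream of the divergent neighbour vps-20, 402 bp upstream of eif-4A3.

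The scanning genes eif-1 and eif-1.A had no pooled summit, nor did eif-6, the only gene under the figure label subunit joining. For eif-1 none of the lists held one. For eif-1.A replicate 2 alone gave 3.49, 713 bp upstream and nearer to the start of H06H21.37. For eif-6, whose product keeps free large subunits apart from small ones in yeast and mammals, replicate 2 gave 2.95 in an intron at 695 bp. In all, 14 of the 39 genes had no pooled summit, where 42.2% of all protein-coding genes held one and the rest did not. Of the 14, 8 had none in any list: eif-1, eif-2Balpha, eif-2D, eif-2beta, eif-3.F, eif-3.L, ife-1 and ife-4. The share of all genes with none in any list was not computed. A gene missing from lists of this kind had no peak called there, at a depth that is not known.

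The strongest summits were near starts in a larger share of these genes than of protein-coding genes at large, though not of every other list of translation genes. The strongest pooled summit was within 500 bp of the start in 14 of the 25 genes that held one (56.0%), against 36.2% of the 8432 protein-coding genes that held one. It was nearest to the gene's own start among all protein-coding starts in 17 of 25 (68.0%), against 72.9%. Of the 54 pooled summits 15 were intergenic, 18 in coding exons, 12 in introns, 8 in 3' UTRs and 1 in a 5' UTR, counting neighbouring genes as well, and 7 lay within 500 bp of a tRNA, snRNA, snoRNA, rRNA or miRNA gene. The same shares over all pooled summits were not computed, so these counts do not show a placing particular to the factor genes. Where a neighbouring gene's body lay within 500 bp upstream on the opposite strand, 10 of 13 factor genes held a pooled summit, against 44.6% of all such genes. With a neighbour that close on the same strand 4 of 8 did, against 43.4%, and with no neighbour within 500 bp 11 of 18 did, against 41.3%. The order differed for the 1000 strongest pooled summits. One of these was held by 1 of 13 genes with an opposite-strand neighbour (against 6.59%), 2 of 8 with a same-strand neighbour (4.22%) and 5 of 18 with none (3.92%). These classes were drawn up after the positions had been seen.

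More of the genes had a summit in replicate 2 than in replicate 1. Replicate 2 held a summit in the window of 27 genes, against a background of 27.3%, and replicate 1 in that of 11, against 16.6%. Both did in 10 genes, against 8.33%: eef-1A.2, eef-1G, eef-2, eif-2Bdelta, eif-2Bepsilon, eif-2Bgamma, eif-3.G, ife-3, iff-2 and ifg-1. Among the 1000 strongest of each list, replicate 2 had summits at 10 genes (25.6%), against 4.34%, and replicate 1 at 5 (12.8%), against 4.23%. In 7 of the 8 genes with one of the 1000 strongest pooled summits, the strongest peak overlapped a replicate 2 peak, and in 3, eef-1A.2, eif-2Bgamma and eif-2Bdelta, a replicate 1 peak. Of the 1000 strongest pooled peaks anywhere, 91.4% overlapped a replicate 2 peak and 54.6% a replicate 1 peak. Replicate 2's list is longer, and its part in the difference between the replicates was not tested.

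Of the 10 genes with a summit of both replicates, 3 had replicate summits within 200 bp of each other, eef-1A.2, eif-2Bgamma and eif-3.G, as did 512 of the 1665 protein-coding genes with a summit of both (2.56% of all genes). The placing of the replicates' summits was thus much as in other genes. At eif-3.G they were at 493 and 872 bp upstream in replicate 1, with signal values of 2.82 and 2.74, and at 712 bp in replicate 2, with 2.32. Near the start itself, within 500 bp to either side, both replicates had a summit in 2 genes, eef-1A.2 and eef-1G, against 1.78% of all genes. Neither gene with a thresholded summit was among these. At eef-1G the replicates did not meet at one position: replicate 1 had its summit 103 bp upstream and replicate 2 one of 2.16 at 462 bp downstream.

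Other genes of translation were compared under the same rules. The 19 further translation genes of a list that included poly(A)-binding proteins, release factors and stress kinases held a pooled summit in 12 cases (63.2%, against 42.2% of all genes) and one of the 1000 strongest in 5 (26.3%, against 4.33%). Those 5 were abcf-2 (13.2), larp-1 (9.92), pab-2 (7.79), drr-2 (7.48) and pab-1 (6.29), and at abcf-2, larp-1 and drr-2 the summit was nearer to another gene's start. The poly(A)-binding protein genes pab-1 and pab-2 had their summits 25 and 97 bp upstream of the start. The eIF4A gene inf-1 had none. Of 20 genes for cytosolic aminoacyl-tRNA synthetases, the enzymes that charge tRNAs, 10 held a pooled summit, near the background of 42.2%, and 0 one of the 1000 strongest, against 4.33%. Their median length was 3473 bp, and per 10 kb of window they held 1.65 pooled summits against 1.71 for all genes. Their highest signal value was 5.65 at yars-1, for a summit 8768 bp from its start and nearest to that of ekl-4. Ribosomal protein genes, 81 by symbol, held a pooled summit in 75 cases (92.6%) and one of the 1000 strongest in 32 (39.5%). The translation factor genes lay between the synthetases and the ribosomal protein genes in both shares.

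**Figure D4:**
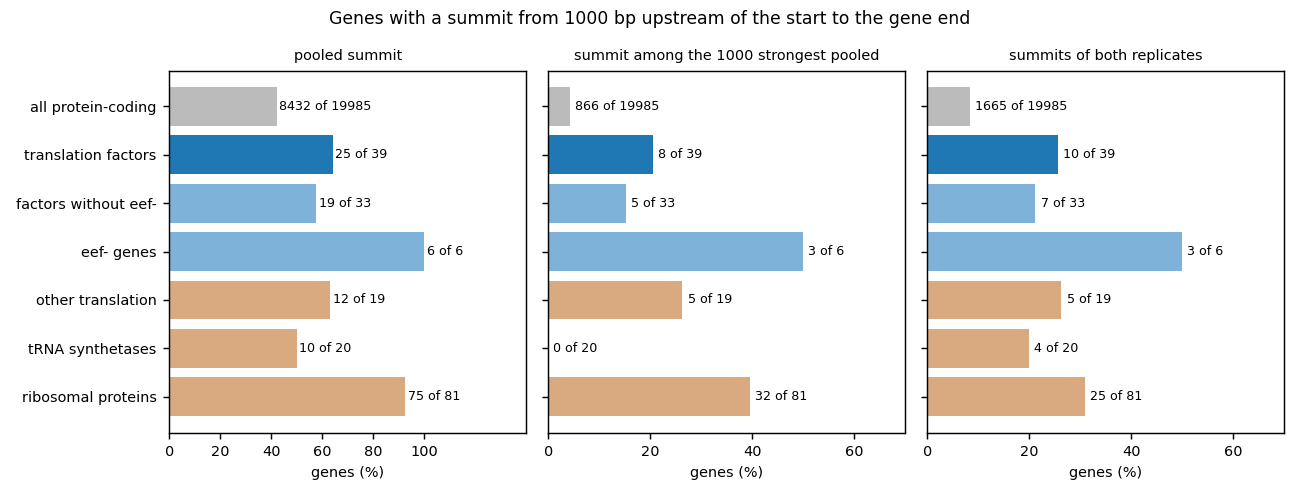
Share of genes (x axis, %) with a summit from 1000 bp upstream of the start to the gene end, for all protein-coding genes, the 39 translation factor genes, their split into eef- genes and the rest, and 3 other lists, with counts beside the bars. The panels count any pooled summit, one of the 1000 strongest pooled summits, and summits of both replicates, and in the middle panel the bars run from 0 of 20 synthetase genes to 3 of 6 eef- genes.

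The promoters of the factor genes were searched for the same 6 words, from 250 bases before to 50 after the start and on both strands. TTTCAG, the usual splice acceptor of this worm, was in 24 of 39 factor promoters (61.5%) and in 51.7% of all promoters. TATAAA was in 17 (43.6%) against 38.0%, GAGAGA in 6 (15.4%) against 21.8%, and TAATTA, a core that many homeodomains bind, in 4 (10.3%) against 15.5%. CCGCCC was in 1 (2.56%) against 7.83%, and CACGTG in 0 against 5.81%. Within 50 bp of the strongest pooled summits of the 25 genes TAATTA and CCGCCC had 0 matches, against 3.95% and 2.47% of all pooled summits. GAGAGA was in 3 of 25, against 8.72%, TATAAA in 3, against 9.61%, TTTCAG in 3, against 17.1%, and CACGTG in 1, against 2.12%. The shares changed with peak strength. Around the 1000 strongest pooled summits they were 2.90% for TAATTA, 5.10% for CCGCCC, 18.7% for GAGAGA, 7.20% for TATAAA, 11.2% for TTTCAG and 3.10% for CACGTG. These are matches of letters in windows of fixed size and were not tested.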

How the data were processed

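Peak lists in narrowPeak form on the build ce11 were used for 2 replicates of 1 group, for their pooled reads and for the authors' thresholded set. The signal value of each peak is a score that the authors deposited. Its scale, the read depth, the aligner and the peak caller with their versions, and the IDR threshold were not stated in the labels or headers. The control the authors called against was not analysed here. The deposited lists on ce10 were not used. Gene starts, exons and biotypes were taken from the WBcel235 annotation of Ensembl release 115, which matches ce11, and bases were read from RefSeq's WBcel235 genome. A summit was the peak start plus the offset in the list. Scripts in Python 3.11.15 assigned summits to windows and were tested on simulated data with planted summits. Coding sequences were aligned with Biopython 1.88 (match 1, mismatch -1, gap opening -5, gap extension -0.5), using the longest coding sequence of each gene.

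With 1 group of 2 samples no test between samples was possible, so members are given as counts beside the share of all protein-coding genes that met the same rule. The members, lists and call rules were chosen with earlier results of these data known. All members could be named; full values were given for those with a thresholded summit or one of the 1000 strongest pooled summits and for the paralogs. Of the fixed names, etfr-1, ppp-1, dap-5 and vars-2 had no match in the annotation. A comparison of protein sequences was replaced by one of coding sequences. The alternatives changed the window, the assignment of summits, the number of peaks and the replicate used. Copies that are near-identical in sequence can share reads.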

Additional observations from a re-analysis of the deposited data

How the results depend on the processing

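The count of 25 genes with a pooled summit lay between 17 and 29 over the 5 other windows and assignments, against 19.0% and 49.1% of all genes at those ends, and with 1 replicate alone it ran from 11 (replicate 1) to 27 (replicate 2). The 2 genes with a thresholded summit were the same in all windows and assignments. With the 29 stronger thresholded peaks the count was 0, and with the 57 strongest peaks of 1 replicate it ran from 0 (replicate 1) to 2 (replicate 2). The count of 8 genes with one of the 1000 strongest pooled summits was 6 to 8 over the windows and assignments, 5 with the 300 strongest (against 1.45% of all genes) and 14 with the 3000 strongest (against 11.7%). With 1 replicate's 1000 strongest peaks it ran from 5 (replicate 1) to 10 (replicate 2). Without replicate 2, eif-3.C, eif-3.B, eef-1A.1 and eef-1A.2 were lost and eif-2Bepsilon entered. Without replicate 1, eif-2Bdelta was lost and eef-1B.1, eef-1G and eif-3.H entered. In replicate 1 iff-2 and eef-2 were kept through other summits, 1582 and 933 bp downstream of the start. The strongest pooled peaks of iff-2 and eef-2 had no overlapping replicate 1 peak. The count of 10 genes with summits of both replicates was lower under 5 alternatives: it was 5 in a window from 1000 bp before the start to 500 bp after it (against 2.82%), 2 within 500 bp to either side (1.78%), 5 with each summit given to the nearest start (5.05%), 3 with replicate summits within 200 bp (2.56%) and 3 with the 1000 strongest peaks of each replicate (1.17%). Each of these rules admits fewer summits. No paired analysis was possible because there was 1 group.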
